A study of Mus musculus with 6 samples.

Results

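The 6 receptor-related genes Gria4, Frrs1l, Grin3a, Grm8, Gabbr2 and Cnr1 were followed across 3 control and 3 spinal cord injury libraries of C57BL/6 mice. They were taken by name from the 53546 features of the deposited count tables, and all 6 were present. The groups come from the sample group label, and the replicate numbers from the sample titles. The labels name both spinal cord and intervertebral disc as the tissue, while the series text speaks of retina and of mice 21 days old. The kind and level of injury, the time after it and any other treatment of either group are not given in the sources used here, nor is it said whether each library is 1 animal. The p-values below therefore measure only how far these libraries differ among themselves, which may be technical. Total counts ran from 2385703 to 3921627 per library. Control 1 and control 2 stood apart from control 3 and from the injury libraries, so every library is given singly below.

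Glutamate is the main excitatory transmitter of the spinal cord and GABA a main inhibitory one. AMPA and NMDA receptors are glutamate-gated ion channels, while metabotropic glutamate receptors, GABA-B receptors and the CB1 cannabinoid receptor act through G proteins. Many of these G protein-coupled receptors sit on nerve endings, where they reduce transmitter release. Gria4 encodes the AMPA receptor subunit GluA4, and Frrs1l encodes a protein of the endoplasmic reticulum needed for AMPA receptor assembly. Grin3a encodes the NMDA receptor subunit GluN3A, which lowers the calcium permeability of the channel. Grm8 encodes the metabotropic glutamate receptor mGlu8. Gabbr2 encodes the GABA-B subunit that couples to G proteins, and its partner Gabbr1 encodes the subunit that binds GABA. Cnr1 encodes the CB1 receptor.

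The 6 genes lie on 3 chromosomes, and their exons in the files overlie the exons of the same gene in GENCODE M21 on GRCm38. The build of the files is not named in the sources used here. Of these, 4 lie on chromosome 4: Cnr1 at chr4:33924593-33948831 on the plus strand, and, on the minus strand, Gabbr2 at chr4:46662305-46991873, Grin3a at chr4:49661611-49845744 and Frrs1l at chr4:56957173-56990391. Grm8 lies at chr6:27275118-28135177 and Gria4 at chr9:4417896-4796234, both on the minus strand. The counted exons add up to 6305 bases for Gria4, 6817 for Frrs1l, 12275 for Grin3a, 9898 for Grm8, 6686 for Gabbr2 and 6444 for Cnr1. Only Grm8 shares exonic bases with another feature, 96 bases with Mir592, which had 0 counts in all 6 libraries. Ppp3r2 lies within Grin3a on the same strand and had 0, 0 and 31 counts in controls 1 to 3 and 13, 17 and 9 in injury libraries 1 to 3, against 1691 for Grin3a in control 3.

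RefSeq promoter windows (GRCm38.p6) were found for 5 of the 6 genes, all but Grin3a. The sequences of 4 are shown because these genes were all low in the same 2 libraries, controls 1 and 2, and because their CpG content can be read from the letters, with each CG in capitals. Each runs 5′ to 3′ on the gene's strand and holds only bases upstream of the exons: Frrs1l at chr4:56990392-56990641, Gria4 at chr9:4796235-4796484, Grm8 at chr6:28135179-28135396 and Cnr1 at chr4:33924014-33924263, the most upstream of the RefSeq starts of Cnr1.
Frrs1l: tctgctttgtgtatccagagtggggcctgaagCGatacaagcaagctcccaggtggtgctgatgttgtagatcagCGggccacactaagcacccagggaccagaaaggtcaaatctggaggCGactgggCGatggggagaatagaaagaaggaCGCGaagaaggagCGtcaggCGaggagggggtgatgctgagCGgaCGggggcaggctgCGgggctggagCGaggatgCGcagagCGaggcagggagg
Gria4: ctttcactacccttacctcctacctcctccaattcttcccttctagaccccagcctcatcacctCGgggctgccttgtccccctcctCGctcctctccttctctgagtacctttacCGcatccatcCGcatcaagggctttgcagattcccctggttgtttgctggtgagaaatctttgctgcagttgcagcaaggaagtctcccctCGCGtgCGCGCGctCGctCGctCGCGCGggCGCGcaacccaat
Grm8: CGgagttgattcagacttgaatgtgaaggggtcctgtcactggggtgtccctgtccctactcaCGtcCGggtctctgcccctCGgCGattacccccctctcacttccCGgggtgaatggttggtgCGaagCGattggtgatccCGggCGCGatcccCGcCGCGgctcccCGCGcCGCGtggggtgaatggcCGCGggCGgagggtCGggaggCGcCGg
Cnr1: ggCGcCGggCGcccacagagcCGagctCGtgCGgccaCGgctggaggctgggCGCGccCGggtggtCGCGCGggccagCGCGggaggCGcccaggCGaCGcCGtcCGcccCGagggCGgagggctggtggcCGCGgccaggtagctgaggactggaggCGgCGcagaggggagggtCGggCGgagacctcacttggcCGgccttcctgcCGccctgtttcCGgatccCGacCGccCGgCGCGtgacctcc
Over 250 bases before the most upstream RefSeq start, the share of G and C was 58.8% for Gria4, 61.2% for Frrs1l, 68.4% for Grm8, 79.2% for Cnr1 and 80.8% for Gabbr2, against a median of 52.4% over 32851 windows. The ratio of observed to expected CpG was 0.69 for Frrs1l, 0.83 for Gria4, 0.92 for Gabbr2, 0.93 for Cnr1 and 1.00 for Grm8, and 27.2% of all windows were at or above the lowest of these. The GC box GGGCGG, searched on both strands, was found 5 times for Cnr1, 2 times for Gabbr2 and 1 time for Grm8, and 32.7% of all windows held it. Of the 250 bases, only 91 for Gabbr2 and 218 for Grm8 lie before the first exon in GENCODE M21. The 91 bases of Gabbr2 held 0 GC boxes. CCAAT was found 2 times each for Gria4 and Grm8, with 33.8% of windows holding it. TATAAA was in none of these 5 windows and in 12.4% of all windows. TTCAGCACC, the left part of the RE1 element to which the neuronal gene repressor REST binds, was in none of the 5 and in 0.301% of all windows, and GGACAGC from its right part was in none of the 5 and in 5.28%. These matches describe the letters only.

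All 6 genes were at high levels in control 3 and in the 3 injury libraries, and far lower in controls 1 and 2. In CPM (counts per 1000000 of the library total), the 6 genes together made 20.8 in control 1 and 84.9 in control 2. They made 4287 in control 3 and 4341, 4712 and 4464 in injury libraries 1 to 3. Control 3 thus lay just under the injury range for this sum, and both other controls lay far below it. In bulk tissue, fewer cells of a type and less RNA per cell cannot be told apart.

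Gria4 was the highest of the 6 genes in injured tissue. Its CPM was 5.90, 62.5 and 1348 in controls 1 to 3 and 1236, 1442 and 1348 in injury libraries 1 to 3. The injury mean was 1342 ± 103 (SD, n = 3), and control 3 lay within the injury range. Control 2 had 245 counts of Gria4 and control 1 had 23, so these 2 libraries differed 10.6-fold from each other in CPM.

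Frrs1l showed the widest separation. Its CPM was 0, 0.255 and 1120.0 in controls 1 to 3 and 1168, 1328 and 1251 in the injury libraries. The single count in control 2 was the only one in controls 1 and 2 together, against 2929 counts in control 3. All 3 injury libraries lay above all 3 controls, with an injury mean of 1249 ± 80.1 (SD, n = 3), and control 3 was at 89.7% of that mean.

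Grin3a gave 10.01, 10.2 and 647 CPM in controls 1 to 3 and 605, 621 and 591 in the injury libraries. It differed from the other 5 genes in 2 ways. Control 3 was above every injury library, at 107% of the injury mean of 606 ± 14.9 (SD, n = 3). Controls 1 and 2 were nearly equal, with 39 and 40 counts, where each of the other genes had 0 or differed between them by over 10-fold.

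Grm8 was the lowest of the 6 genes. Its CPM was 0, 1.78 and 73.4 in controls 1 to 3 and 76.1, 84.6 and 67.5 in the injury libraries. The values rest on 192 counts in control 3 and on 221, 241 and 161 in the injury libraries, while control 1 had 0 and control 2 had 7. Control 3 was within the injury range.

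Gabbr2 gave 4.88, 0.255 and 655 CPM in controls 1 to 3 and 816, 751 and 756 in the injury libraries. All injury libraries were above all controls, and control 3 was at 84.5% of the injury mean of 774 ± 36.2 (SD, n = 3), the lowest such share of the 6 genes. Gabbr2 was also the only one of the 6 with more counts in control 1 (19) than in control 2 (1).

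Cnr1 had 0, 9.94 and 444 CPM in controls 1 to 3 and 439, 485 and 450.2 in the injury libraries. Control 3 lay within the injury range and at 96.9% of the injury mean of 458 ± 24.0 (SD, n = 3). Control 1 had no count of Cnr1. There the floor of 3 counts would be 0.168% of the injury mean, and the exact 95% Poisson upper limit for 0 counts is 0.207%.

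**Figure D1:**
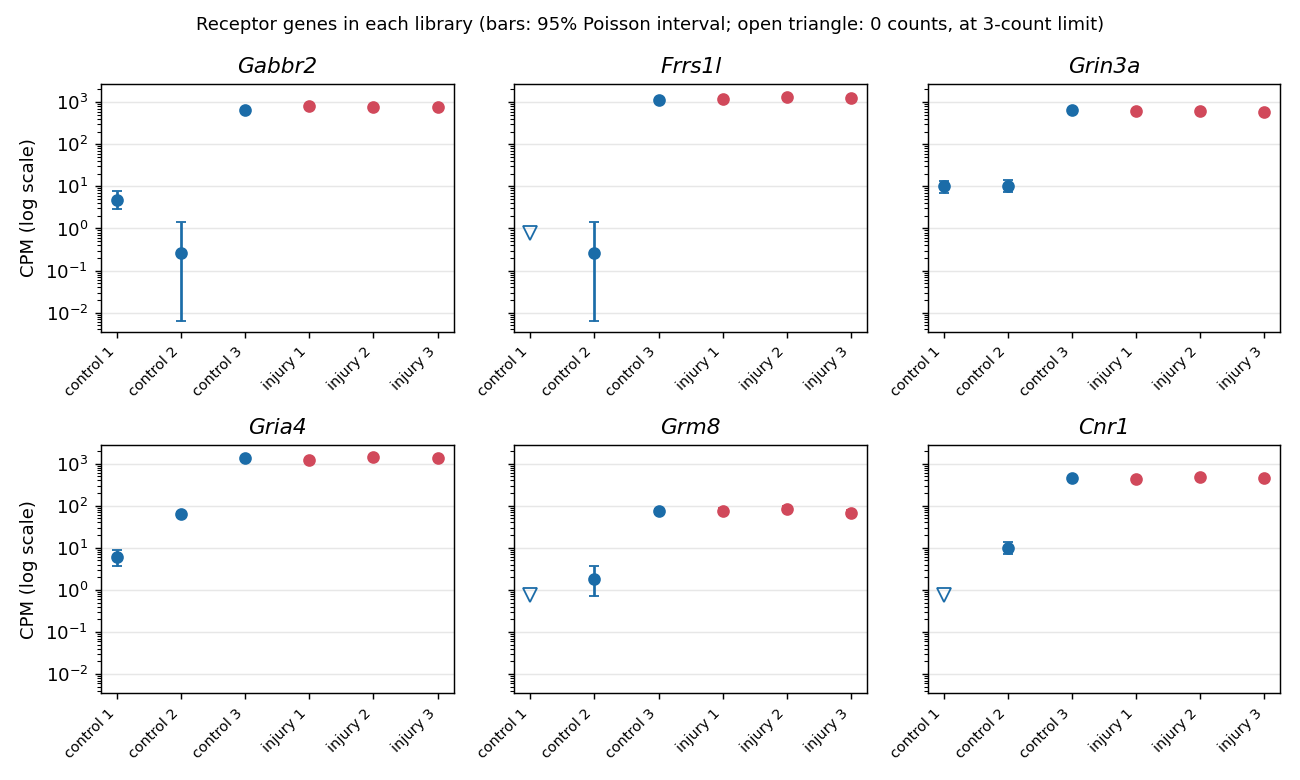
CPM of each of the 6 genes in each library, on a log axis, with control libraries in blue and injury libraries in red, exact 95% Poisson intervals as bars and open triangles for 0 counts, drawn at 3 counts. For every gene control 3 sits beside the injury libraries, as for Gria4 at 1348 against 1236 to 1442, while controls 1 and 2 sit far below.

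Expressed as a percent of the injury mean, control 1 ranged from 0 for Frrs1l, Grm8 and Cnr1 to 1.65% for Grin3a. Control 2 ranged from 0.0204% for Frrs1l to 4.65% for Gria4, and control 3 from 84.5% for Gabbr2 to 107% for Grin3a. With exact Poisson intervals at 95%, which cover counting error only, Gria4 in control 2 was at 4.09 to 5.28% of the injury mean and Grin3a there at 1.20 to 2.29%. The intervals do not overlap, so these 2 genes differed in control 2 by more than counting error. In control 1 the order was reversed, with Gria4 at 0.279 to 0.660% and Grin3a at 1.17 to 2.26%. The ratio of pooled injury CPM to that of controls 1 and 2 together was 39.1 for Gria4 (95% exact interval 34.7 to 44.3, counting error only), 60.04 for Grin3a (48.1 to 76.0) and 85.5 for Grm8 (41.3 to 214). It was 91.9 for Cnr1 (67.1 to 130) and 303 for Gabbr2 (196 to 497). For Frrs1l it was 9759, and with 1 count behind the lower value its interval ran from 1751 to 3.855e+05.

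**Figure D2:**
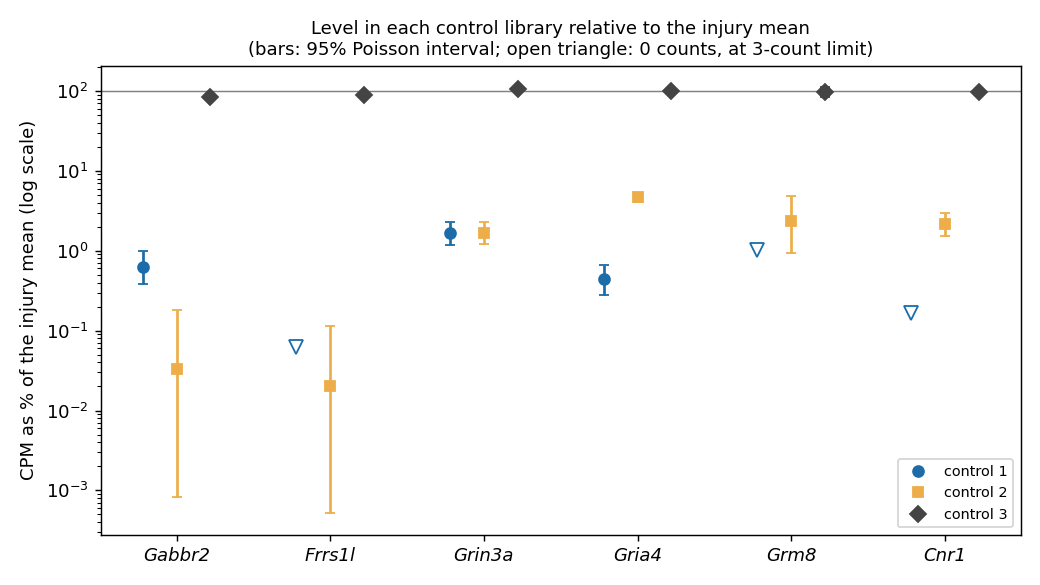
Each gene's CPM in controls 1, 2 and 3 as a percent of its injury mean, on a log axis, with exact 95% Poisson intervals; triangles mark a count of 0, drawn at the share that 3 counts would give. Control 3 lies between 84.5% and 107% for the 6 genes, and control 2 between 0.0204% and 4.65%.

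Per kilobase of counted exon, the injury means were 213 ± 16.3 CPM for Gria4, 183 ± 11.7 for Frrs1l, 116 ± 5.41 for Gabbr2, 71.1 ± 3.72 for Cnr1, 49.4 ± 1.22 for Grin3a and 7.68 ± 0.866 for Grm8 (SD, n = 3 each). The order was the same in control 3 and in each injury library. The injury ranges of neighbours in this order did not overlap, and those of Gria4 (196 to 229 CPM per kilobase) and Frrs1l (171 to 195) came nearest to each other. Among the 1755 features that lie on their own exons, Gria4 ranked 7 and Frrs1l 11 by injury mean CPM, Gabbr2 30, Grin3a 45, Cnr1 66 and Grm8 265.

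The spread between injury libraries was small next to these levels. The coefficient of variation over the 3 injury libraries was 2.46% for Grin3a, where counting alone would give 2.46%. It was 4.67% for Gabbr2, 5.23% for Cnr1, 6.41% for Frrs1l and 7.68% for Gria4, against 1.66 to 2.83% from counting. Grm8, with the fewest counts, had 11.3% against 6.94% from counting. As shares of the sum of the 6 genes, Gria4 made 31.5% in control 3 and 28.5 to 30.6% in the injury libraries, and Frrs1l 26.1% and 26.9 to 28.2%. In control 2 the sum had another makeup, with 73.6% from Gria4 and 0.300% from Frrs1l, on 333 counts in all. In control 1, on 81 counts, Grin3a made 48.1%.

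The labelled comparison of 3 injury with 3 control libraries gave no call for any of the 6 genes. With edgeR's quasi-likelihood test and Benjamini-Hochberg adjustment over 12646 features, the log2 fold changes ran from 1.54 (SE 1.56, adjusted p = 0.504) for Grin3a to 1.90 (SE 2.05, adjusted p = 0.527) for Gabbr2. Frrs1l was at 1.83 (SE 2.496) with an adjusted p of 0.614, the widest error of the 6. On the same 6 libraries, limma-voom gave larger log2 fold changes, from 4.18 for Grin3a to 9.80 for Frrs1l, with adjusted p of 0.159 to 0.172, and none passed. In edgeR 0 of all features tested passed (0% called), and 3241 had an unadjusted p under 0.05. DESeq2 called 18 higher and 1485 lower, with Gabbr2 and Frrs1l not among them and no adjusted p given for the other 4 genes. In an exact two-sided permutation test of CPM, for which 3 against 3 cannot go below p = 0.1, Gabbr2 and Frrs1l had p = 0.1, Gria4, Grm8 and Cnr1 p = 0.2 and Grin3a p = 0.4, or 0.24 to 0.4 when adjusted over the 6. All 3 injury libraries were above all 3 controls for 2 of the 6 genes, Gabbr2 and Frrs1l. That held for 13.7% of all features tested and for 24.5% of those on their own exons.

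The spread within the control group was wider than its mean: CPM was 472 ± 759 for Gria4, 373 ± 647 for Frrs1l and 220 ± 377 for Gabbr2 (SD, n = 3). It was 222 ± 367 for Grin3a, 151 ± 253 for Cnr1 and 25.1 ± 41.9 for Grm8. In limma-voom with a quality weight for each library, which lets libraries differ in how much they count, all 6 passed as higher, where 26.7% of all features did. Of the 461 features tested on their own exons, 226 passed as higher in that fit.

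Leaving out control 3 changed the call for every one of the 6 genes. This fit is given in full because control 3 differed from controls 1 and 2 in these same data. Its adjusted p-values therefore describe a split seen in the values and are not an independent test. Against controls 1 and 2 alone, edgeR's quasi-likelihood test put the injury libraries higher by a log2 fold change of 5.99 (SE 0.89, adjusted p = 0.0017) for Gria4, 6.37 (SE 0.34, adjusted p = 0.000109) for Grin3a and 6.91 (SE 0.71, adjusted p = 0.000493) for Grm8. It was 7.18 (SE 1.14, adjusted p = 0.0021) for Cnr1, 8.57 (SE 1.07, adjusted p = 0.000912) for Gabbr2 and 13.34 (SE 0.60, adjusted p = 8.97e-05) for Frrs1l. The last rests on 1 count in the controls and depends on the fit's prior count. Its 95% interval in this fit was 3840 to 27915-fold, narrower than the 1751 to 3.855e+05 that counting error alone gave on library totals. The SE of Frrs1l thus understates its uncertainty. So 6 of 6 passed as higher, where 30.2% of the 15320 features tested did, and 53.5% of the 518 tested on their own exons. By log2 fold change among those 518, Frrs1l ranked 1, Gabbr2 8, Cnr1 19, Grm8 22, Grin3a 30 and Gria4 33. Over all features the same fit called 4621 higher and 5610 lower, and with total counts alone as the scaling 3348 higher and 6524 lower.

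Against control 3 alone, none of the 6 genes passed in edgeR's quasi-likelihood test, where 6.78% of 13857 features did; with 1 control, its spread is taken to be that of the 3 injury libraries. The log2 fold change was 0.36 (95% interval 0.03 to 0.70) for Gabbr2 and 0.28 (-0.06 to 0.63) for Frrs1l. For Cnr1 it was 0.17 (-0.17 to 0.50), for Grm8 0.17 (-0.20 to 0.55), for Gria4 0.12 (-0.23 to 0.46) and for Grin3a 0.03 (-0.30 to 0.35). The median over the 482 features on their own exons was 0.18 in that fit. By log2 fold change among those 482, Gabbr2 ranked 108, Frrs1l 159, Grm8 249, Cnr1 255, Gria4 299 and Grin3a 345. DESeq2, an alternative chosen after seeing the data, passed Gabbr2 at 0.40 with an adjusted p of 0.0486, where it called 16.2% of the 1231 features to which it gave an adjusted p as higher. With total counts alone as the scaling, also chosen after seeing the data, the signs of Grin3a (-0.0937) and Gria4 (-0.0066) turned. Gabbr2 with that scaling was at 0.24 (95% interval -0.04 to 0.52). Over all features, this comparison in edgeR called 146 higher and 793 lower with TMM scaling, 269 and 773 with RLE, and 56 and 874 on total counts alone. DESeq2, which gave an adjusted p to fewer features, called 200 and 4. Both of these comparisons share the 3 injury libraries and follow a split of the controls seen in these data.

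**Figure D3:**
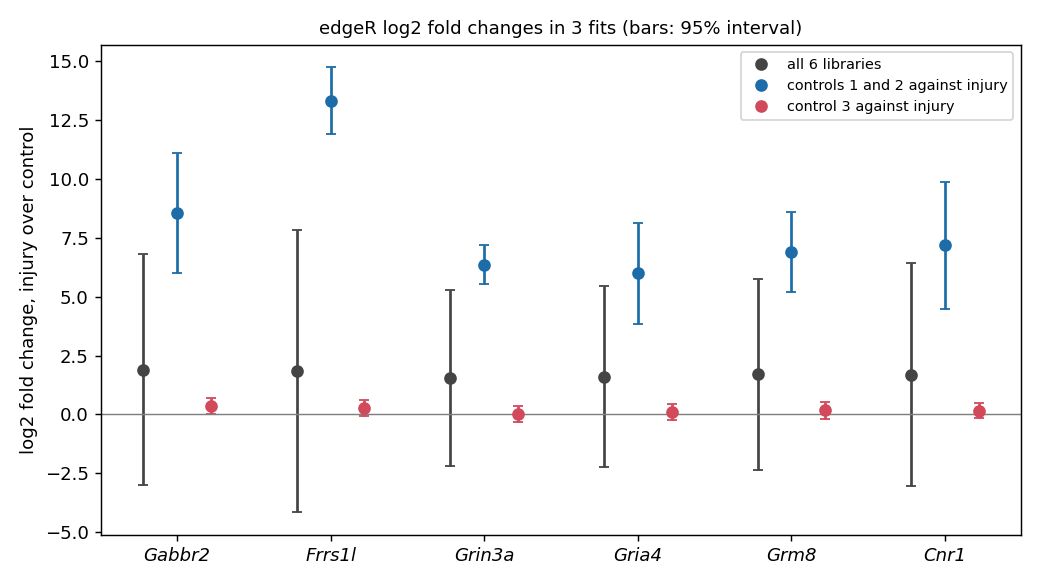
Log2 fold change of injury over control for the 6 genes from edgeR, with 95% intervals, with all 6 libraries, against controls 1 and 2 alone and against control 3 alone. The intervals are derived from the F statistic, and that of Frrs1l against controls 1 and 2 understates counting error. The intervals with all libraries span 0, those against controls 1 and 2 lie above 0 around values of 5.99 for Gria4 to 13.34 for Frrs1l, and the values against control 3 lie between 0.03 and 0.36.

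The 6 genes were set beside a list of 91 genes of the same signalling systems in 9 classes. Because most features of the files do not lie on the gene they are named for in GRCm38, a listed gene was read from its own feature where that lies on its exons, and otherwise from the features that overlie its exons. This gave 42 of the 91 genes, of which 39 passed the filter on low counts, 32 of them read from overlying features. Those features covered only 2.06 to 56.2% of the gene's exonic bases (median 6.79%) and can hold introns, so levels between these genes are not comparable. In 36 of the 39, controls 1 and 2 were both below the other 4 libraries. Control 3 was within the injury range for 11, above it for 18 and below it for 10. Shares over all genes read this way are not given for these counts, so they do not show what is particular to the list.

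In edgeR's quasi-likelihood test with all 6 libraries, 0 of the 39 passed, as did 0% of 5128 genes read this way, and the median log2 fold change was 1.33 against -0.03 over all genes tested. Without control 3, 33 passed as higher, 2 as lower and 4 did not pass, where 28.1% of 5647 genes passed as higher and 31.5% as lower. The median was 5.49 against -0.07, and remained 5.49 with the 7 genes that had no count in controls 1 and 2 set at their lower bound. Without the 6 genes themselves, 27 of 33 were higher, with a median of 3.88. Without controls 1 and 2, 0 of 39 passed, where 0.708% of all genes did, with a median of -0.01.

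The calls by class come from the same edgeR fit of the injury libraries against controls 1 and 2. Higher and lower are relative to those controls, not to control 3. The calls describe a split of the controls seen in these data and are not an independent test. Of the AMPA receptor subunits, 3 of 3 tested were higher. Gria2, whose edited subunit blocks calcium entry, had no count in controls 1 and 2, 148 CPM in control 3 and, in the injury libraries, 100.1, 120.1 and 81.3, at least 265-fold higher with a floor of 3 counts over both controls. Gria3 gave 5.65 and 28.3 CPM in controls 1 and 2 against 61.9 in control 3 and 49.6, 52.3 and 59.9 in the injury libraries. Of the AMPA receptor partners, 4 of 5 were higher. Cacng8, a transmembrane auxiliary subunit, was at 0.257 and 3.57 CPM in controls 1 and 2, 74.6 in control 3 and 65.0 to 72.3 in the injury libraries. Shisa7, which did not pass (edgeR adjusted p = 0.0548), was at 4.62 and 22.7, then 53.9, and 24.3 to 48.8.

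Of the NMDA receptor subunits, 5 of 5 were higher than in controls 1 and 2. The obligatory subunit gene Grin1 had no count in controls 1 and 2, 96.7 CPM in control 3 and, in the injury libraries, 108, 91.7 and 102, at least 262-fold higher. Grin2b was at 0 and 1.02 CPM, then 138 in control 3, and 114, 114 and 109 in the injury libraries. All 3 kainate receptor and Neto genes tested were higher than in those controls. Grik5 was at 50.3 and 139 CPM in controls 1 and 2 against 168 in control 3 and 167 to 215 in the injury libraries, while Grik2 was at 0.257 and 0.510 against 130.01 in control 3 and 90.5 to 127, so that their log2 fold changes were 1.09 (SE 0.33) and 7.997 (SE 0.39). Neto2, a kainate receptor auxiliary protein, was at 3.34 and 24.0 against 173 and 149 to 200.3.

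Of the metabotropic glutamate receptors, 3 of 3 were higher than in controls 1 and 2. Grm4 was at 0.257 and 0 CPM, then 11.5, and 15.1 to 24.8. Both GABA-B subunit genes were higher than in those controls. Gabbr1 was at 36.7 and 95.1 CPM in controls 1 and 2, 562 in control 3 and 688, 638 and 607 in the injury libraries, a log2 fold change of 3.37 (SE 0.34) against controls 1 and 2 where Gabbr2 had 8.06 (SE 1.14) in the same fit. In counts, Gabbr2 had 20 in controls 1 and 2 together, and the difference between the 2 genes was not tested. Of the GABA-A subunits, 3 of 4 were higher than in controls 1 and 2. Gabra3 was at 0.257 and 1.78 CPM there against 74.9 in control 3 and 62.9 to 71.9 in the injury libraries. Gabrq was at 0.513 and 0.510 against 50.1 and 26.4 to 47.8, and Gabrb2 had no count against 33.6 and 24.3 to 28.4, at least 70.1-fold higher.

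Of the cannabinoid genes, 4 of 6 were higher than in controls 1 and 2. Abhd12, a lipase that can break down the endocannabinoid 2-arachidonoylglycerol, was at 10.8 and 29.8 CPM in controls 1 and 2, 205 in control 3 and 230 to 236 in the injury libraries. Daglb, one of the enzymes that make it, was at 22.3 and 35.7 CPM in controls 1 and 2, 46.3 in control 3 and 48.6 to 57.8 in the injury libraries. Of the genes of synthesis and transport, 6 were higher and 2 lower than in controls 1 and 2. Slc17a6, the vesicular glutamate transporter VGLUT2, and Slc6a11, the GABA transporter GAT-3, had no count in controls 1 and 2. Slc17a6 was at 82.2 CPM in control 3 and 75.0 to 97.3 in the injury libraries, at least 221-fold higher, and Slc6a11 at 92.5 and 93.3 to 122, at least 290.4-fold higher. Slc6a13, the GABA transporter GAT-2, was at 64.4 and 30.3 CPM in controls 1 and 2 and lower in the other libraries. It was at 1.91 in control 3 and at 2.06, 2.81 and 14.7 in the injury libraries. It is named because few of the list were lower, after its values were seen.

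**Figure D4:**
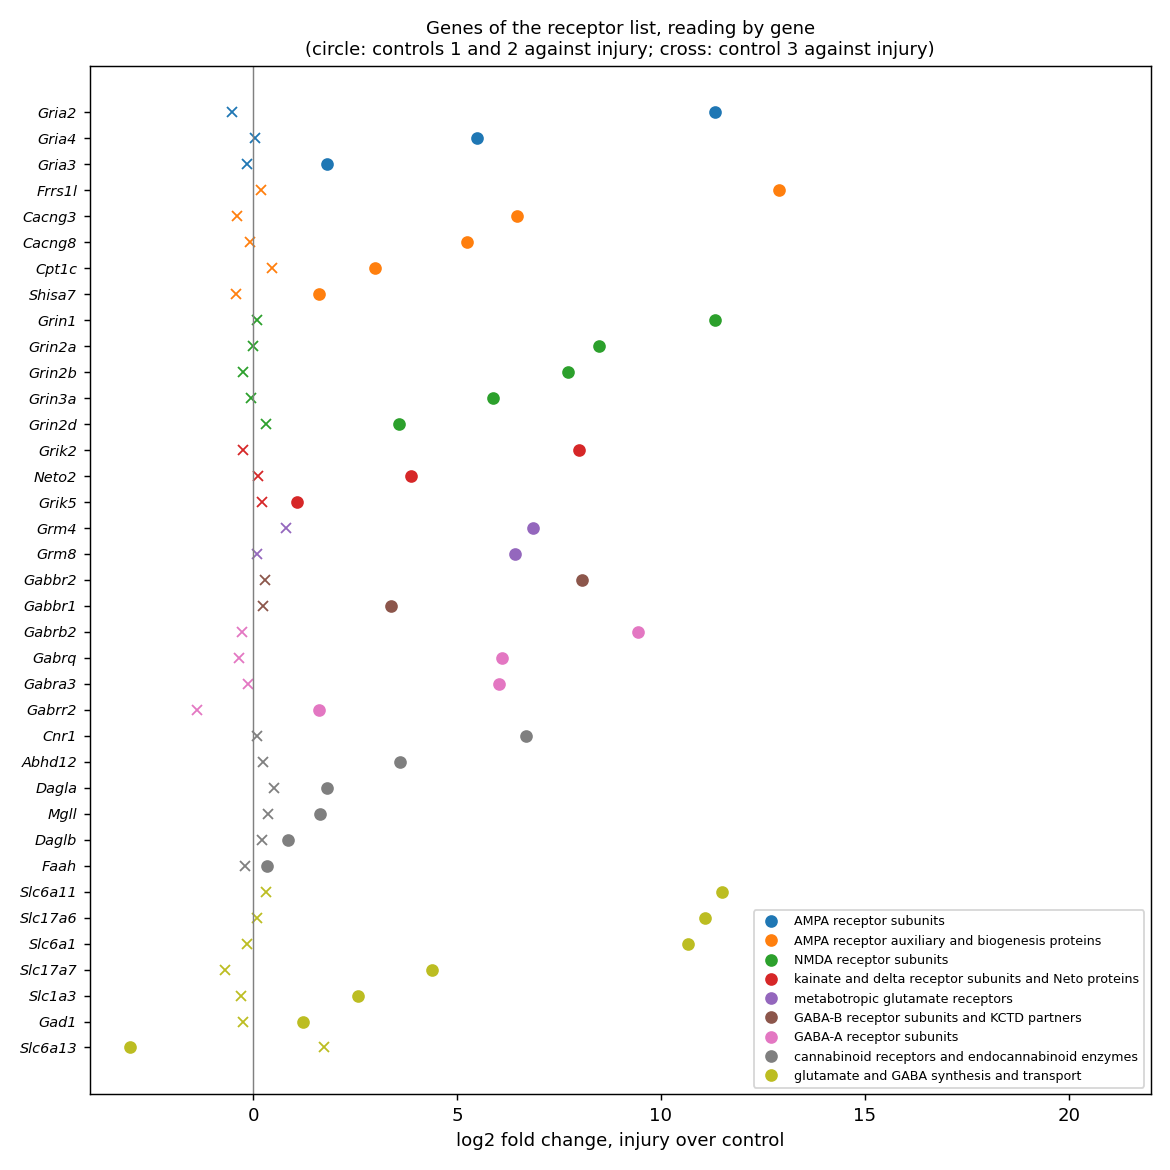
Log2 fold change of injury over control for 37 of the 39 tested genes of the receptor list, 1 row per gene, coloured by class; circles are the edgeR fit against controls 1 and 2, crosses the fit against control 3. Over all 39 the circles have a median of 5.49, with Slc6a13 below 0, and the crosses have a median of -0.01.

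Among 373 features on their own exons, the genes closest to each of the 6 were found by the root mean square difference of centred log2 CPM over the 6 libraries. Mmp16, a membrane-bound metalloproteinase, was closest to Grm8 (0.15), Kcnd2, a potassium channel, to Cnr1 (0.19), Phf24 to Grin3a (0.20) and Faxc to Gria4 (0.22). The next were Tmeff1 for Gria4 (0.23), Kcns2 for Grin3a (0.24), Cntn5 for Grm8 (0.28) and Enho for Cnr1 (0.39). Ptprz1, a receptor phosphatase of glial precursors, was closest to Gabbr2 (0.43), with 10.5 and 3.82 CPM in controls 1 and 2 against 1770.0 in control 3. Nxph1 followed for Gabbr2 (0.63). Gpr37, a receptor found in oligodendrocytes, was closest to Frrs1l (0.53), followed by Pou3f2 (1.08). Among the 6 genes themselves, Gria4 and Grm8 were closest (0.41) and Frrs1l and Gria4 farthest apart (2.31). These likenesses turn on controls 1 and 2, where several values rest on fewer than 10 counts.

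Markers of several cell types moved in the same libraries. They were read as the receptor list was, so many come from features that overlie only part of a gene. Of the neuron markers 0 had a feature on its own exons, of the oligodendrocyte list 2 and of the renal tubule list 4. The features read for Slc17a6 and Gad1 covered 2.82% and 6.21% of their exonic bases. Of 4 neuron markers that could be read of 12, all were lower in controls 1 and 2 than in the other 4 libraries, and their summed level was 8.47 and 16.3 CPM against 162 to 183. Slc17a6 was at 0 in both. Of 8 markers of oligodendrocytes and their precursors read of 12, 6 were lower in controls 1 and 2. The sums over all 8 were 93.4 and 448 CPM against 4611 to 5205. The other 2 did not follow. Pdgfra was at 59.8 and 377 CPM in controls 1 and 2 against 93.5 to 108 in the other 4 libraries. Cspg4 was at 9.75 and 19.9 against 8.79 to 19.3. Of 6 renal tubule markers read of 14, all were higher in controls 1 and 2, with sums of 3635 and 2063 CPM against 3.77 to 8.95, and Slc7a13, Slc34a1 and Aqp3 were at 0 in control 3 and in all injury libraries. Their part in the differences of the 6 receptor genes was not tested.

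Other lists were smaller or mixed. Apart from 1 photoreceptor marker, their genes were read only from overlying features. The 2 astrocyte markers read of 7 went opposite ways: Slc1a3 was at 3.08 and 8.41 CPM in controls 1 and 2 against 28.8 to 40.9, and Aldh1l1 at 181 and 42.1 against 2.06 to 6.71, so that their sum was 184 and 50.5 against 34.1 to 47.0. The 2 markers of microglia and macrophages read of 7 summed to 10.8 and 122 against 13.0 to 31.7. The 3 disc and cartilage markers read of 10 summed to 3.08 and 15.3 CPM against 43.2 to 68.5, with Acan at 0 in controls 1 and 2, and the 3 photoreceptor markers read of 6 to 2.05 and 13.3 against 3.10 to 7.54, with Crx at 1 count in control 1 and 0 in the other 5 libraries. The 2 muscle markers read of 4 reached 95.2 CPM in injury 3 and 16.8 in control 3 and were at or below 1.72 elsewhere. The 2 red cell markers read of 3 summed to 20.8 and 46.9 CPM in controls 1 and 2, 356 in control 3 and 403, 6.67 and 85.1 in the injury libraries. Injury 3, with the most muscle marker signal, had 4464 CPM of the 6 genes, between injury 1 and injury 2. This is 1 library, and the part of muscle in the levels of the 6 genes was not tested.

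**Figure D5:**
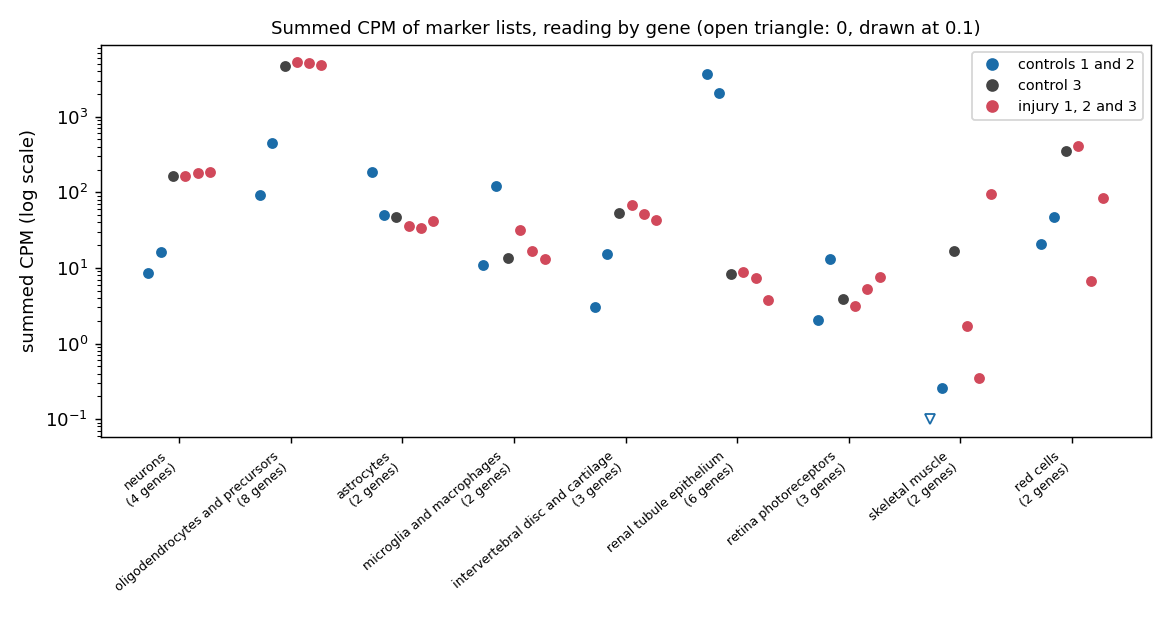
Summed CPM of each cell type marker list in each library, on a log axis; an open triangle marks a sum of 0, drawn at 0.1. Most markers were read from overlying features, so sums of different lists are not comparable. The sums of the neuron and oligodendrocyte lists are low in controls 1 and 2, and that of the renal tubule list is high. The renal sum is 3635 and 2063 CPM there against at most 8.95 in the other 4 libraries.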

How the data were processed

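The data are RNA sequencing libraries from 6 mouse samples, 3 per group. Per the labels' protocols, RNA was extracted with Trizol and libraries were made with an Illumina TruSeq kit. The deposited values are counts, which featureCounts 2.0.1 made per the file headers from read pairs summed over the exons of each gene name. Strand was not used, and multi-mapping reads and those overlapping more than 1 gene were dropped, so sense and antisense signal cannot be separated. Bowtie 0.12.2 and the builds mm8 and mm9 are listed in the submitters' processing notes, while the annotation release is not given in the sources used here.

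Exons in the files were set against GENCODE M21 (GRCm38). At least 90% of exonic bases lay on exons of the same gene for 1755 of 53546 features, the 6 genes among them (3.28%, holding 9.16% of counts). Other listed genes were read by summing features that share at least 100 bases with exons, 90% or more of them on 1 gene, which gave 10677 genes and 56.0% of counts. CPM is the count over the library total, times 1000000. Total counts ran from 2385703 to 3921627, and 3 counts served as the floor.

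The test was edgeR 4.0.16 (R 4.3.3) with TMM scaling, filterByExpr and the quasi-likelihood F test between both groups, Benjamini-Hochberg adjusted over all features, with calls at 0.05. It was tested on simulated data. There the libraries of a group shared the same mean for each feature, unlike the controls here. DESeq2 1.42.0, limma 3.58.1, other scalings and filters, a replicate block and left-out libraries were alternatives, 5 of these 22 chosen after seeing the data. The 6 genes and the gene lists were chosen with earlier results of these data known. Named from the receptor list were up to 3 genes per class by mean CPM over the 6 libraries; 2 genes of that list count in its totals and are not reported here. Likeness used 2 as prior count and features of at least 5 CPM in the injury libraries.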

Additional observations from a re-analysis of the deposited data

How the results depend on the processing

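Over 22 alternatives, the log2 fold changes of Gabbr2, Frrs1l, Grm8 and Cnr1 were above 0 in 22 and those of Gria4 and Grin3a in 21. Gabbr2 passed in 5 of them and each other gene in 4. Over all features, 0 passed with all 6 libraries in edgeR; DESeq2 called 1503, limma-voom with quality weights 7040, and leaving out 1 library in turn gave 0 to 10231, the highest without control 3. Without controls 1 and 2 the count was 939. Without control 3, total counts alone gave 9872 and DESeq2 9820. Without controls 1 and 2, total counts alone gave 930, RLE scaling 1042 and DESeq2 204. Of the 6 genes, 6 passed with quality weights, 0 to 6 when 1 library was left out (6 without control 3), 6 without control 3 on total counts alone and 6 in DESeq2, and 1 (Gabbr2) without controls 1 and 2 in DESeq2. Of all features, 26.7% passed as higher with quality weights and 30.2% without control 3. Without control 3, 3348 of 15320 features passed as higher on total counts alone and 4766 in DESeq2. Of the 39 receptor list genes, 28 passed with quality weights, and 0 to 35 when 1 library was left out. The 28 were 26 higher and 2 lower, against 23.5% higher and 23.0% lower of all genes read this way. Without control 3, 30 passed on total counts alone (28 higher, against 26.3% of all genes higher and 29.7% lower) and 37 in DESeq2 (35 higher, against 29.5% and 30.4%). On total counts alone without controls 1 and 2, Grin3a turned to -0.0937 and Gria4 to -0.0066. DESeq2 with all libraries gave no adjusted p for Grin3a, Gria4, Grm8 and Cnr1. The median log2 fold change of all features moved from -0.07 with TMM to 0.04 with RLE and -0.23 on total counts alone.

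The replicate numbers were taken to be names only: same-numbered control and injury libraries deviated together with r of 0.0643, -0.137 and 0.0543, and not every library correlated best with its own number. With the replicate number as a block, 0 features passed in edgeR, and the 6 genes had log2 fold changes of 4.53 to 10.12 with adjusted p of 0.234 to 0.253. Depth limits Grm8 most, with 161 to 241 counts in control 3 and the injury libraries.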
